A study of Homo sapiens with 6 samples.

Results

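The genes of the V-type and P-type ATPase pumps, the proteins that spend ATP to move protons, metal ions, sodium, potassium, calcium and lipids across membranes, were followed in the breast cancer line MDA-MB-231. Members were all genes whose symbol begins with ATP6V, ATP6AP, ATP1A, ATP1B, ATP2A, ATP2B, ATP2C, ATP7, ATP8A, ATP8B, ATP9, ATP10, ATP11 or ATP13A, without pseudogenes and antisense genes. Of 30051 genes in the count table, 69 symbols began so, and 61 remained after 6 antisense names and 2 pseudogenes by RefSeq were set aside. The pseudogenes were ATP8B5P and ATP6AP1L, of which GENCODE 29 lists ATP6AP1L as protein-coding. Of the 61, ATP11AUN and ATP6V1FNB are named for a neighbouring gene and encode no pump subunit, which leaves 59 pump genes. These are 22 genes of the V-ATPase and 37 of P-type pumps.

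RNA was sequenced from MDA-MB-231, an established triple-negative breast cancer line, after 24 h with 50 nM panobinostat, an inhibitor of histone deacetylases, or with its solvent DMSO. There were 3 libraries in each group, numbered 1, 2 and 4 for panobinostat and 1, 2 and 3 for DMSO. The series' design text says that conditions were repeated independently, and all libraries came from 1 cell line, so the spread between them is that of repeats of a culture. The comparison asks which genes adapt their expression to the drug.

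The V-ATPase is a rotary proton pump made of a cytosolic V1 sector, which hydrolyses ATP, and a membrane V0 sector, through which protons pass. It acidifies lysosomes, endosomes and secretory vesicles and serves as a platform for nutrient signalling on the lysosome. P-type pumps take their name from the phosphate that ATP leaves on an aspartate of the pump during each cycle. They keep the sodium, potassium and calcium gradients of the cell (Na,K-ATPase and calcium pumps), export or load copper (ATP7A and ATP7B), turn lipids from one leaflet of a membrane to the other (P4 flippases) or act in polyamine and membrane protein transport (P5 pumps).

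The libraries held 15106148, 5389638 and 6622406 counts in panobinostat replicates 1, 2 and 4, against 11996519, 7113569 and 6514568 counts in DMSO replicates 1, 2 and 3. Panobinostat replicate 4 stood between the groups. Along the main axis of a principal component analysis (87.5% of the variance), the panobinostat libraries lay at −62.9, −63.9 and −18.3 and the DMSO libraries at 47.6, 49.1 and 48.4. The library carries the same treatment label as the others, and what sets it apart was not tested. It is kept in the values below, and results without it are given beside them. The markers of the line, VIM, CD44, MSN and AXL, lay between 758 and 2956 CPM (counts scaled to a library total of 1000000) in every library. The genes low in claudin-low lines, CDH1, ESR1, PGR, CLDN3, CLDN4 and CLDN7, lay between 0 and 16.6 CPM. Of the leukocyte markers with a row, PTPRC was at 0 counts in 5 of 6 libraries, and CD14 lay between 1.96 and 3.22 CPM in panobinostat, against 0.427 to 0.678 CPM in DMSO. The endothelial markers PECAM1, CDH5 and VWF summed to 4.41 to 7.68 CPM in panobinostat and to 6.83 to 8.30 CPM in DMSO.

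More pump transcripts were higher than lower after panobinostat. Of 45 pump genes with enough counts to be tested, 27 rose and 4 fell, while 14 were not called. A gene was called at an adjusted p under 0.05 in edgeR's quasi-likelihood test with Benjamini-Hochberg adjustment over all 13341 genes tested, of which 30.2% were called higher and 28.6% lower (58.9% either way). The median log2 fold change, panobinostat over DMSO, was 0.34 over the 45 pump genes and 0.00 over all genes tested. The 10 called pump genes that differed by at least 2-fold all rose, among them ATP2A3, ATP6V1C2, ATP2B4, ATP7B, ATP7A, ATP8A1, ATP6V1A, ATP6V0A1 and ATP9A. Among all tested genes, 10.9% rose and 4.66% fell that far. The values of the groups did not overlap in 38 of the 45, 31 of them higher and 7 lower in panobinostat, against 69.0% of all tested genes (35.0% higher, 34.0% lower). Without panobinostat replicate 4, 32 pump genes rose and 8 fell of 46 tested, where 37.6% of all genes were called higher and 36.9% lower.

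The filter on low counts bears on these numbers. Of the 45 tested genes, 42 passed the count minimum in all DMSO libraries. ATP2A3 and ATP6V1C2 passed only through panobinostat, where they were high, so their calls follow in part from the filter. Among the 14 untested pump genes were ATP1B2, ATP1B4, ATP10B, ATP8B4, ATP13A4, ATP13A5, ATP6V0A4, ATP6V0C, ATP6V0D2, ATP6V1B1, ATP2A1, ATP2B2 and ATP2B3. Each of the 14 held at most 42 counts summed over the panobinostat libraries and at most 33 over the DMSO libraries. In bulk RNA, fewer cells with a transcript and less of it per cell cannot be told apart.

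Panobinostat replicate 4 was the panobinostat library nearest to DMSO in all 27 pump genes that rose and in all 4 that fell. The median change of the 27 over the DMSO mean was 0.77, 0.82 and 0.38 (log2) in panobinostat replicates 1, 2 and 4. In the 4 that fell it was −0.73, −0.76 and −0.34. For single genes that rose, the change in replicate 4 was between 15.9% and 73.6% of the mean change in replicates 1 and 2.

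**Figure D1:**
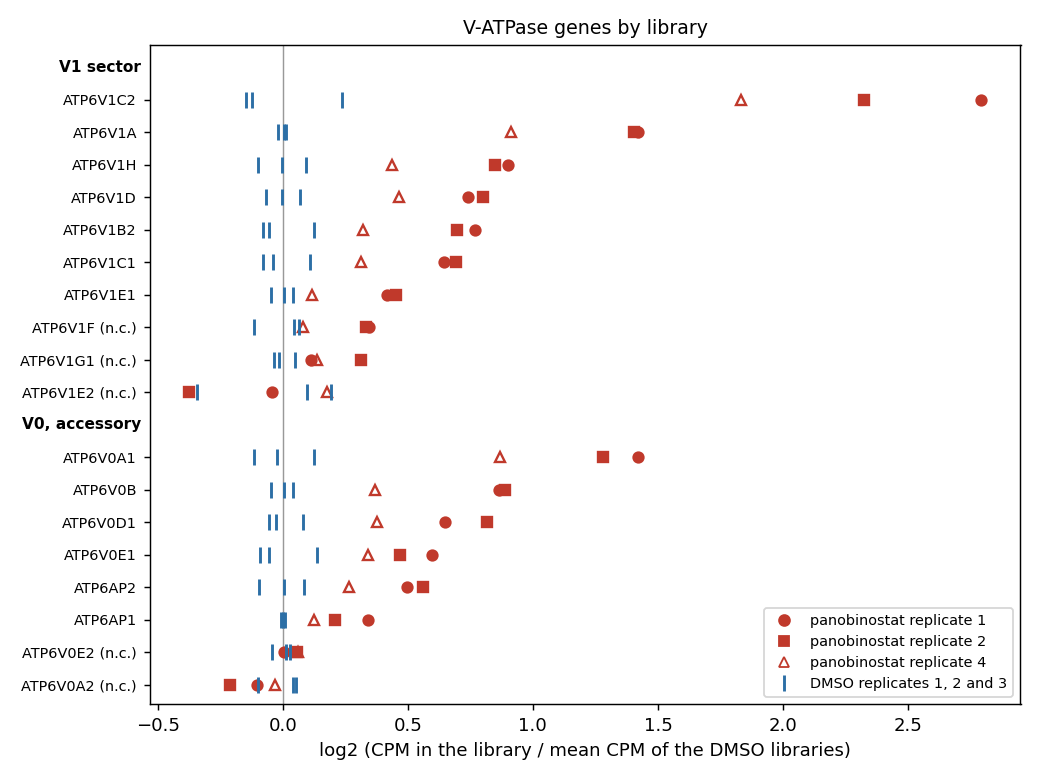
The 18 tested V-ATPase genes, each library placed on the horizontal axis by the log2 ratio of its CPM to the mean CPM of the DMSO libraries; filled circles and squares are panobinostat replicates 1 and 2, open triangles panobinostat replicate 4, blue bars the DMSO libraries, and "n.c." marks genes not called. ATP6V1C2, ATP6V1A and ATP6V0A1 lie farthest to the right, and replicate 4 lies nearest to DMSO in all 13 genes that rose.

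The V1 sector moved mostly upward. Of its 11 genes, 10 were tested, 7 rose and 3 were not called, with a median log2 fold change of 0.58. Among all tested genes, 30.2% were called higher and 28.6% lower. ATP6V1A, which encodes the catalytic A subunit and lies on chromosome 3 from 113747035 to 113812056 (GRCh38.p14), had 139.6, 138 and 98.1 CPM in panobinostat, against 51.5, 52.4 and 52.6 CPM in DMSO. All panobinostat libraries lay above all DMSO libraries, a log2 fold change of 1.27 ± 0.14 (SE; edgeR adjusted p = 0.000687) and 1.41 without replicate 4. Per transcript length, ATP6V1A averaged 105 ± 19.6 TPM in panobinostat and 43.3 ± 0.632 TPM in DMSO (TPM are counts per exonic length scaled to a total of 1000000; SD, n = 3 each).

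ATP6V1B2, the non-catalytic B subunit that pairs with A, had 186, 177 and 137 CPM in panobinostat, against 119, 103 and 105 CPM in DMSO, a log2 fold change of 0.61 ± 0.12 (edgeR adjusted p = 0.00450). The groups did not overlap. Per length it averaged 91.6 ± 14.5 TPM in panobinostat and 59.5 ± 4.43 TPM in DMSO. On the TPM scale the mean of ATP6V1A was thus below that of ATP6V1B2 in DMSO. In panobinostat it was above, but within the SDs. In CPM, ATP6V1A lay below ATP6V1B2 in every library, so no change of order is read from these values. ATP6V1H, the H subunit, which blocks ATP hydrolysis in free V1, had 85.3, 82.2 and 61.7 CPM in panobinostat, against 48.7, 45.5 and 42.7 CPM in DMSO, a log2 fold change of 0.74 ± 0.13 (edgeR adjusted p = 0.00299). ATP6V1D, part of the central rotor, had 198, 206 and 163 CPM in panobinostat, against 118, 113 and 124 CPM in DMSO, a log2 fold change of 0.68 ± 0.10 (edgeR adjusted p = 0.00149). In both genes replicate 4 was the lowest panobinostat library and still above every DMSO library.

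The C subunit clamps V1 to V0 and is encoded by a widespread gene, ATP6V1C1, and a tissue-restricted one, ATP6V1C2. ATP6V1C2 had 89, 23 and 20 counts in panobinostat, against 9, 7 and 5 counts in DMSO, or 5.85, 4.23 and 3.01 CPM in panobinostat, against 0.763, 0.996 and 0.776 CPM in DMSO. Its log2 fold change was 2.43 ± 0.34 (edgeR adjusted p = 0.00146) and 2.65 without replicate 4. Of its exonic bases in GENCODE 29, 29.9% lie opposite other genes, chiefly PDIA6. Whether the authors counted by strand, and how they assigned reads in shared bases, is unstated here. Such reads could be added to the count of ATP6V1C2 or be missing from it. ATP6V1C1 rose with a log2 fold change of 0.56 ± 0.11. On the TPM scale ATP6V1C2 stayed far below it, with 5.39 ± 1.76 TPM in panobinostat and 1.03 ± 0.159 TPM in DMSO, beside 169.6 ± 23.1 TPM in panobinostat and 114 ± 7.60 TPM in DMSO for ATP6V1C1.

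The peripheral stalks hold V1 still while the rotor turns. Their E1 subunit gene, ATP6V1E1, rose by 0.34 ± 0.10 (log2, edgeR adjusted p = 0.0195), a call that was lost without any one of the libraries except panobinostat replicate 4 (adjusted p 4.19e-12 to 0.0795 over the alternatives). Its testis-enriched paralog ATP6V1E2 had a log2 fold change of −0.07 ± 0.20 and was not called. The G1 subunit gene ATP6V1G1, which had the highest level per length of the V-ATPase (307 ± 23.2 TPM in panobinostat and 267 ± 7.69 TPM in DMSO), had 0.19 ± 0.08 and was not called. ATP6V1F, a rotor subunit, had 0.27 ± 0.11 and was not called. It shares 23.7% of its exonic bases with genes on the opposite strand. Without panobinostat replicate 4, ATP6V1G1 and ATP6V1F were called higher, at log2 fold changes of 0.18 and 0.35 (edgeR adjusted p = 0.00658 and 0.000273).

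In the V0 sector with its accessory proteins, 8 of 11 genes were tested, 6 rose and 2 were not called, with a median log2 fold change of 0.46. The shares over all tested genes were 30.2% higher and 28.6% lower. ATP6V0A1, one of the paralogs of the large a subunit that carries the proton half-channels and sets where the pump goes in the cell, lies on chromosome 17 from 42458878 to 42522579. It had 127, 115 and 86.7 CPM in panobinostat, against 51.9, 46.8 and 43.9 CPM in DMSO, a log2 fold change of 1.21 ± 0.14 (edgeR adjusted p = 0.000897) and 1.34 without replicate 4. Every panobinostat library lay above every DMSO library. ATP6V0A2, the paralog associated with the Golgi apparatus, had a log2 fold change of −0.11 ± 0.08 and was not called with all libraries. Without panobinostat replicate 4 it was called lower, at −0.15 (edgeR adjusted p = 0.0220). The paralog TCIRG1, known from the acid-secreting osteoclast and outside the members by its symbol, had 0.19 ± 0.08 and was not called.

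The mix of a subunit transcripts also differed. Of the TPM summed over ATP6V0A1, ATP6V0A2, ATP6V0A4 and TCIRG1, ATP6V0A1 made up 29.5, 27.4 and 23.7% in panobinostat, against 15.7, 15.2 and 13.4% in DMSO. TCIRG1 had the largest share on this scale in every library, at 56.6, 59.4 and 59.0% in panobinostat, against 63.3, 64.6 and 66.2% in DMSO. That order depends on the exonic lengths used. In CPM, ATP6V0A1 (127, 115 and 86.7) lay above TCIRG1 (97.6, 100.4 and 86.4) in panobinostat replicates 1, 2 and 4. In every DMSO library it lay below TCIRG1 (83.6, 79.4 and 87.0 CPM). ATP6V0A2 made up 13.6, 12.9 and 16.8% in panobinostat, against 19.7, 19.1 and 19.7% in DMSO. The ATP6V0A1 share was higher in each panobinostat library than in each DMSO library, and those of TCIRG1 and ATP6V0A2 were lower.

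ATP6V0B, a subunit of the proton-carrying ring, had 118, 120.0 and 83.7 CPM in panobinostat, against 65.0, 62.8 and 66.7 CPM in DMSO, a log2 fold change of 0.73 ± 0.14 (edgeR adjusted p = 0.00356). ATP6V0D1, which couples the ring to the rotor, had 96.9, 109 and 80.2 CPM in panobinostat, against 60.7, 59.5 and 65.3 CPM in DMSO, a log2 fold change of 0.62 ± 0.11 (edgeR adjusted p = 0.00343). In both genes the groups stood apart, with replicate 4 the lowest panobinostat library. ATP6V0E1, a small membrane subunit, had 121, 110.5 and 101 CPM in panobinostat, against 87.7, 75.0 and 76.8 CPM in DMSO, a log2 fold change of 0.47 ± 0.10 (edgeR adjusted p = 0.00467). ATP6AP2, the accessory protein also known as the prorenin receptor, had 96.4, 101 and 82.2 CPM in panobinostat, against 72.5, 68.6 and 64.1 CPM in DMSO, a log2 fold change of 0.44 ± 0.10 (edgeR adjusted p = 0.00589).

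ATP6AP1, an accessory protein needed for V0 assembly, rose by 0.23 ± 0.07 (log2, edgeR adjusted p = 0.0287). That call was lost in 7 of 15 alternatives, among them DESeq2 and each fit without a single library other than panobinostat replicate 4 (adjusted p 1.47e-08 to 0.203). ATP6V0E2 had 0.04 ± 0.08 and was not called. ATP6V0C, the main subunit of the proton ring, had only 27, 5 and 6 counts in panobinostat, against 14, 9 and 5 counts in DMSO and was not tested. Of its exonic bases, 72.1% lie within other genes on the same strand in GENCODE 29, so its counts are uncertain and nothing is read from them. Over the V-ATPase as a whole, 13 of 18 tested genes rose in edgeR and 0 fell, with 0 lower at an unadjusted p under 0.05, 0 lower in DESeq2 and 0 lower in limma-voom. In edgeR, 30.2% of all tested genes were called higher and 28.6% lower. Leaving out panobinostat replicate 4 gave 15 V-ATPase genes that rose and 1 that fell, where 37.6% of all genes were called higher and 36.9% lower. The median log2 fold change of the V-ATPase genes was 0.51 with all libraries and 0.58 without replicate 4.

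Many lysosomal genes carry an E-box-type element with the core CACGTG, bound by TFEB and its relatives, in their promoters. RefSeq promoter windows (250 bases before to 50 bases after the start, GRCh38.p14) were matched by symbol for 44 of the 59 pump genes, 15 of them V-ATPase genes. CACGTG, which reads the same on both strands, occurred in 4 of the 15 V-ATPase windows (26.7%), in 2 of 29 P-type windows (6.90%) and in 8 of 22 windows of a list of genes for lysosomal proteins and the transcription factors TFEB, TFE3 and MITF (36.4%). Among all 27305 windows, 7.43% held it, and among those of tested genes 10.0%. The longer TCACGTGA, which contains CACGTG, occurred in 2 of the 15 V-ATPase windows, 2 of 29 P-type windows and 4 of 22 lysosomal windows. It was in 1.04% of all windows and in 1.99% of those of tested genes. A 10-base form that contains TCACGTGA occurred in 1 of the 15 V-ATPase windows and in 0.80% of those of tested genes. By call, 0 of 8 windows of V-ATPase genes that rose and 1 of 4 of those not called held the 10-base form. The GC-box core GGGCGG, searched on both strands, occurred in 10 of the 15, in 44.6% of all windows and in 70.8% of those of tested genes. Of the V-ATPase genes with CACGTG, ATP6V0B and ATP6V0D1 rose while ATP6V1G1 and ATP6V0E2 were not called. By call, 2 of 8 windows of V-ATPase genes that rose and 2 of 4 of tested genes not called held the element. These counts are incomplete, since 13 V-ATPase genes rose and 5 tested ones were not called. Among those that rose, ATP6V1A, ATP6V1B2, ATP6V1C1, ATP6V1H and ATP6V0E1 had no window. Binding was not measured. The 150 bases before the start are given for these 4 genes and for the copper pump ATP7A, which has the larger change of the 2 P-type members with the element (the other is ATP2B1), with CACGTG in capitals. They are the strand of the gene, 5′ to 3′, at chr1:43974810-43974959 (plus strand), chr16:67481158-67481307 (minus), chr9:114587619-114587768 (plus), chr7:149872818-149872967 (plus) and chrX:77910543-77910692 (plus).
ATP6V0B: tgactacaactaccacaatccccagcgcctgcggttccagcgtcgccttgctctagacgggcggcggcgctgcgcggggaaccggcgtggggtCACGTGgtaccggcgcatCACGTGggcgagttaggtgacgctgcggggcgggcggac
ATP6V0D1: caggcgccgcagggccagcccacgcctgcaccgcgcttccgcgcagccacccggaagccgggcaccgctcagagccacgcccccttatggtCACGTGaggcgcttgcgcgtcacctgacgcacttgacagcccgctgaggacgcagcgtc
ATP6V1G1: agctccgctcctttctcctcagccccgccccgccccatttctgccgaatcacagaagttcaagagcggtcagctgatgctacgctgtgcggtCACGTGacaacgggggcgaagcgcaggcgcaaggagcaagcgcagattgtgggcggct
ATP6V0E2: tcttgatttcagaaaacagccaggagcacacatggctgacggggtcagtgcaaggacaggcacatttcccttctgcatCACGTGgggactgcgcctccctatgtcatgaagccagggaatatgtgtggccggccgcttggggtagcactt
ATP7A: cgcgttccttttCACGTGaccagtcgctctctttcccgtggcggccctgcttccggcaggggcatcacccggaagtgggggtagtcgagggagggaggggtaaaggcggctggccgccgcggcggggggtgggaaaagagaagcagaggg
Counted from the start, the element begins at bases −57 and −39 in ATP6V0B, −59 in ATP6V0D1, −58 in ATP6V1G1, −72 in ATP6V0E2 and −138 in ATP7A. The 4 V-ATPase genes thus have a copy within a narrow stretch before the start, whether or not the gene was called.

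**Figure D2:**
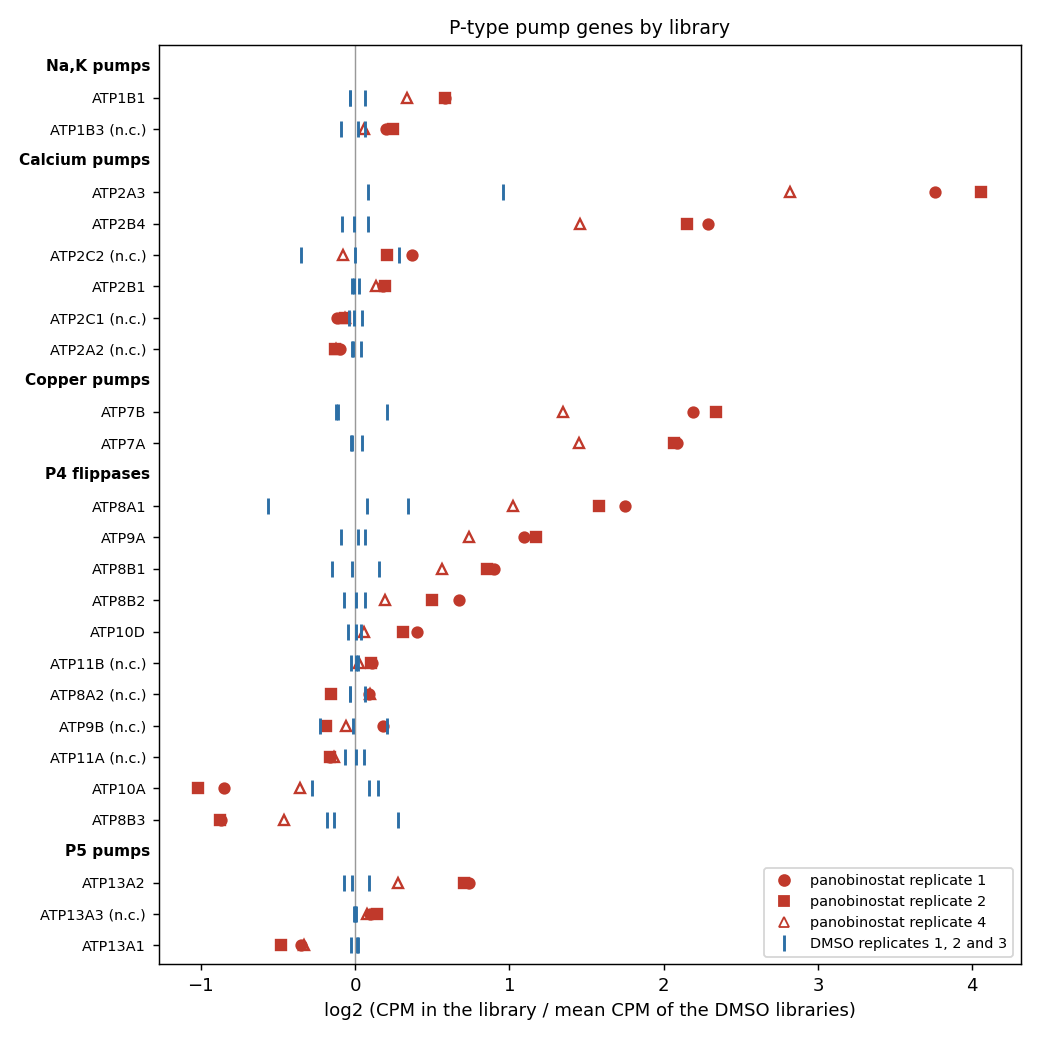
Tested P-type pump genes (24 drawn), each library placed on the horizontal axis by the log2 ratio of its CPM to the mean CPM of the DMSO libraries; filled circles and squares are panobinostat replicates 1 and 2, open triangles panobinostat replicate 4, blue bars the DMSO libraries (replicate 2 of ATP2A3, at 0 counts, is not drawn), and "n.c." marks genes not called. ATP2A3, ATP2B4, ATP7B and ATP7A lie farthest to the right, while the flippases spread to both sides of the DMSO mean.

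Of the P-type pumps, 27 of 37 genes were tested, 14 rose, 4 fell and 9 were not called, with a median log2 fold change of 0.20. Among all tested genes, 30.2% were called higher and 28.6% lower. When panobinostat replicate 4 was left out, 17 P-type genes rose and 7 fell of 28 tested, where 37.6% of all genes were called higher and 36.9% lower.

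The Na,K-ATPase drives sodium out of the cell in exchange for potassium. Its beta subunits bring the pump to the plasma membrane. ATP1B1, one of them, had 352, 352 and 297 CPM in panobinostat, against 229.7, 230.1 and 246 CPM in DMSO, a log2 fold change of 0.51 ± 0.08 (edgeR adjusted p = 0.00217). The groups did not overlap. ATP1B3 had a log2 fold change of 0.17 ± 0.07 and was not called, but was called higher without panobinostat replicate 4 at 0.21 (edgeR adjusted p = 7.61e-05). Per length, ATP1B1 averaged 484 ± 45.5 TPM in panobinostat and 338 ± 14.6 TPM in DMSO, and ATP1B3 averaged 350.0 ± 22.5 TPM in panobinostat and 308 ± 15.9 TPM in DMSO (SD, n = 3 each). The panobinostat libraries stood above DMSO by more than the SDs of both groups for ATP1B1. Of beta subunit transcripts on the TPM scale, ATP1B1 made up 58.8, 58.1 and 57.1% in panobinostat, against 51.4, 50.7 and 54.99% in DMSO. Its share was higher in every panobinostat library than in every DMSO library.

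Among calcium pumps, those of the plasma membrane (PMCA) export calcium, those of the endoplasmic reticulum (SERCA) store it, and those of the Golgi apparatus (SPCA) also carry manganese. Of 9 genes, 6 were tested and 3 rose, where 30.2% of all tested genes were called higher. ATP2B4, the PMCA4 gene on chromosome 1 from 203626832 to 203744081, had 225, 205 and 127 CPM in panobinostat, against 43.5, 49.0 and 45.9 CPM in DMSO, a log2 fold change of 2.01 ± 0.20 (edgeR adjusted p = 0.000631) and 2.24 without replicate 4. Its lowest panobinostat library, replicate 4, was far above the highest DMSO library. ATP2B1, the widespread PMCA1 gene, had 355, 358 and 345 CPM in panobinostat, against 312, 319.5 and 308 CPM in DMSO, a log2 fold change of 0.17 ± 0.05 (edgeR adjusted p = 0.0237). That call was lost in 7 of 15 alternatives, with DESeq2, with no filter and without any one library other than panobinostat replicate 4 (adjusted p 5.73e-08 to 0.374). Of PMCA transcripts on the TPM scale, ATP2B4 made up 38.2, 35.8 and 26.4% in panobinostat, against 11.98, 13.0 and 12.7% in DMSO. The PMCA sum was 242 ± 25.8 TPM in panobinostat and 161 ± 3.36 TPM in DMSO (SD, n = 3 each).

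ATP2A2, the SERCA2 gene and by far the most abundant SERCA transcript, had 849, 829 and 833 CPM in panobinostat, against 931, 899 and 893 CPM in DMSO, a log2 fold change of −0.12 ± 0.05, and was not called (edgeR adjusted p = 0.0649). Without panobinostat replicate 4 it was called lower at −0.12 (edgeR adjusted p = 0.00203), a small difference. ATP2A3, the SERCA3 gene of blood and epithelial cells, had 66, 29 and 15 counts in panobinostat, against 4, 0 and 4 counts in DMSO. Replicate 4 was again the lowest panobinostat library. Its log2 fold change of 3.59 ± 0.58 (edgeR adjusted p = 0.00235, 3.81 without replicate 4) rests on these few DMSO counts. Of SERCA transcripts on the TPM scale, ATP2A2 still made up 98.4, 98.1 and 99.1% in panobinostat, against 99.6, 99.6 and 99.4% in DMSO. The SPCA genes ATP2C1 and ATP2C2 had log2 fold changes of −0.08 ± 0.06 and 0.22 ± 0.29 and were not called. Without replicate 4, ATP2C1 was called lower at −0.11 (edgeR adjusted p = 0.0249).

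**Figure D3:**
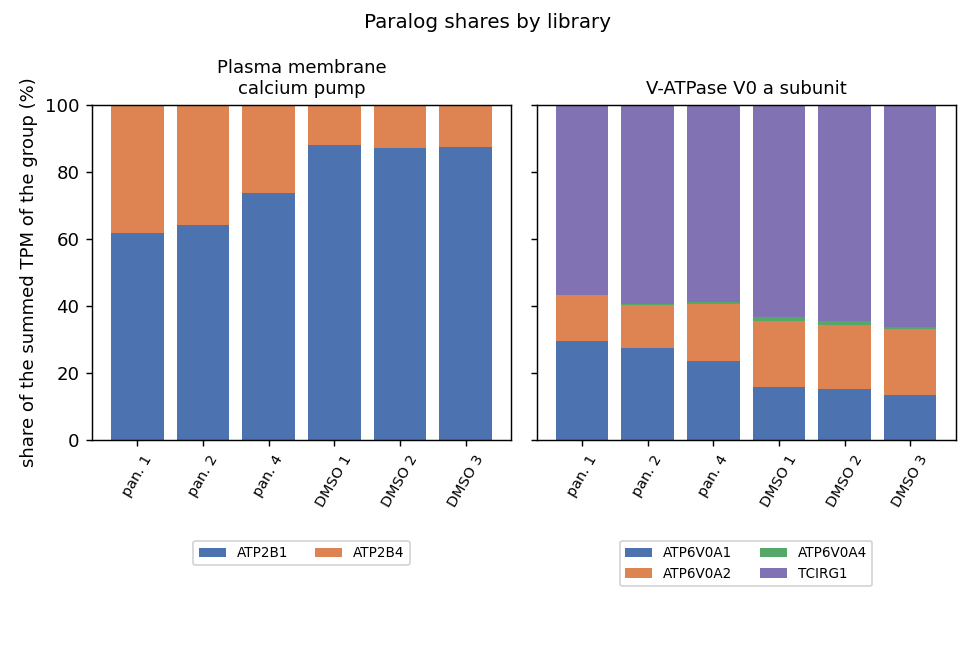
Stacked bars give each paralog's share, in percent, of the length-scaled level (TPM) summed over the plasma membrane calcium pumps and the a subunits of the V-ATPase, with 1 bar per library and the panobinostat libraries ("pan.") left of the DMSO libraries; the rarest paralogs are not drawn. The shares of ATP2B4 and ATP6V0A1 are higher in every panobinostat library than in every DMSO library, and among the panobinostat libraries replicate 4 is closest to DMSO.

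Both copper pumps rose by a similar factor. They deliver copper to enzymes in the secretory pathway and export it when it is in excess, and their loss causes Menkes disease (ATP7A) and Wilson disease (ATP7B). ATP7A, on chromosome X from 77910693 to 78050395, had 64.0, 63.2 and 41.2 CPM in panobinostat, against 15.6, 14.8 and 14.9 CPM in DMSO, a log2 fold change of 1.90 ± 0.18 (edgeR adjusted p = 0.000592) and 2.06 without replicate 4. ATP7B, on chromosome 13 from 51932669 to 52012132, had 22.4, 24.8 and 12.5 CPM in panobinostat, against 5.68, 4.55 and 4.50 CPM in DMSO, a log2 fold change of 1.997 ± 0.27 (edgeR adjusted p = 0.00128) and 2.19 without replicate 4. In both, replicates 1 and 2 lay close together, replicate 4 lower, and no DMSO library came near. The summed copper pump level was 31.0 ± 7.92 TPM in panobinostat and 8.05 ± 0.436 TPM in DMSO (SD, n = 3 each). Of that sum, ATP7A made up 71.7, 69.3 and 74.5% in panobinostat, against 70.9, 74.2 and 74.6% in DMSO, ranges that overlap.

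Of the 5 copper-handling genes on the list of pump partners, 4 were called higher and COMMD1 was not called. Over all tested genes, 30.2% were called higher and 28.6% lower. SLC31A1, the main copper importer CTR1, had 159, 162 and 119 CPM in panobinostat, against 78.3, 75.7 and 69.8 CPM in DMSO, a log2 fold change of 0.97 ± 0.12 (edgeR adjusted p = 0.000999). Its relative SLC31A2 had 28, 13 and 15 counts in panobinostat, against 11, 6 and 3 counts in DMSO, a log2 fold change of 1.40 ± 0.32 (edgeR adjusted p = 0.00709). It passed the filter only through panobinostat, where it was high, so this call follows in part from the filter and is not read as support for the others. CCS, the chaperone that loads copper on superoxide dismutase, had 25.9, 26.8 and 15.7 CPM in panobinostat, against 13.8, 13.2 and 12.9 CPM in DMSO, a log2 fold change of 0.78 ± 0.20 (edgeR adjusted p = 0.0114). Replicate 4 was close to DMSO for CCS, and the call was lost without panobinostat replicate 1 (adjusted p 5.31e-15 to 0.0501 over the alternatives). ATOX1, the chaperone that hands copper to ATP7A and ATP7B, is on the partner list and was picked for naming after its values were seen. It had 69.4, 58.6 and 53.3 CPM in panobinostat, against 46.3, 42.8 and 43.1 CPM in DMSO, a log2 fold change of 0.46 ± 0.11 (edgeR adjusted p = 0.00874). COMMD1, which acts in copper balance and was likewise picked after its values were seen, had 14.7, 13.2 and 13.2 CPM in panobinostat, against 15.4, 15.1 and 12.6 CPM in DMSO, a log2 fold change of −0.06 ± 0.13 (edgeR adjusted p = 0.702).

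**Figure D4:**
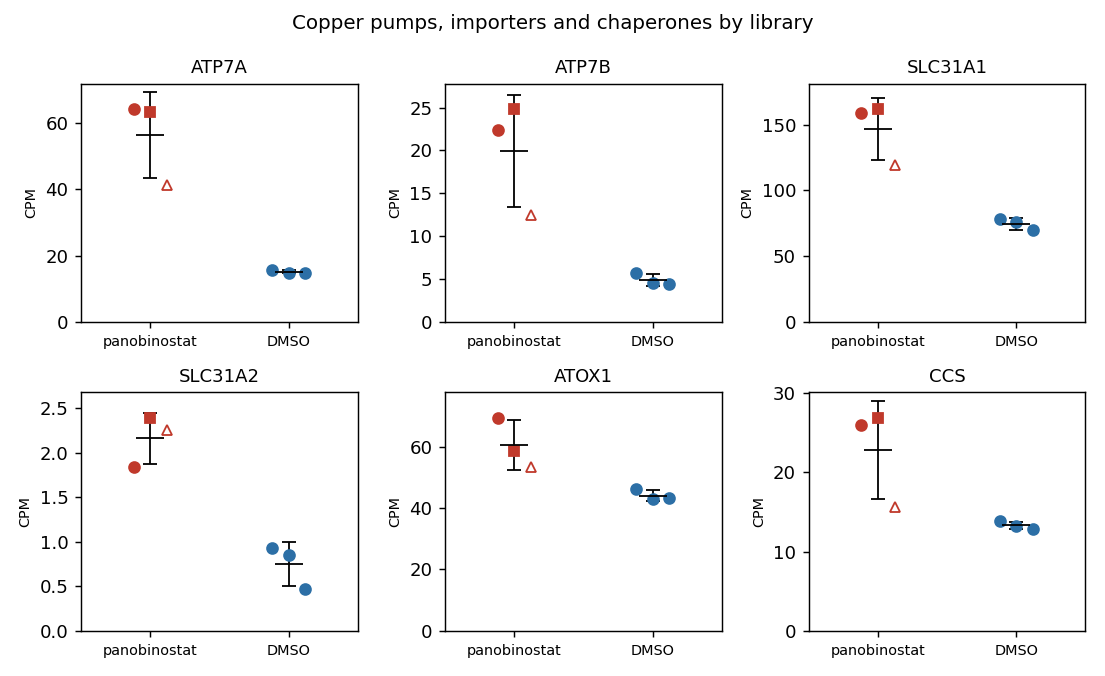
CPM of copper pumps, importers and chaperones, 1 panel per gene with an axis from 0; points are libraries (open triangles, panobinostat replicate 4), horizontal lines the means and bars 1 SD over 3 libraries. Panobinostat libraries lie above DMSO libraries in all 6 genes, and replicate 4 is the lowest of them in all but SLC31A2.

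Of 14 P4 flippase genes, 12 were tested. There were 5 that rose, 3 that fell and 4 that were not called, with a median log2 fold change of 0.06. Over all tested genes, 30.2% were called higher and 28.6% lower, so nothing particular to the flippases is read from these counts. ATP8A1, which moves phosphatidylserine to the cytosolic leaflet, had 28.4, 25.2 and 17.2 CPM in panobinostat, against 8.90, 5.69 and 10.7 CPM in DMSO, a log2 fold change of 1.496 ± 0.25 (edgeR adjusted p = 0.00274). ATP9A, a flippase-family protein of endosomes, had 5.39, 5.70 and 4.21 CPM in panobinostat, against 2.37, 2.56 and 2.64 CPM in DMSO, a log2 fold change of 1.03 ± 0.21 (edgeR adjusted p = 0.00458). ATP8B1, whose loss causes inherited cholestasis, had 42.3, 41.0 and 33.6 CPM in panobinostat, against 25.3, 22.3 and 20.5 CPM in DMSO, a log2 fold change of 0.77 ± 0.13 (edgeR adjusted p = 0.00249). In these genes every panobinostat library was above every DMSO library.

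Calls of the smaller rises were lost when some single libraries were left out, while their log2 fold changes stayed positive, between 0.35 and 0.63 for ATP8B2 and between 0.18 and 0.38 for ATP10D over the alternatives. ATP8B2 had 59.8, 52.9 and 42.9 CPM in panobinostat, against 35.7, 39.3 and 37.7 CPM in DMSO, a log2 fold change of 0.48 ± 0.13 (edgeR adjusted p = 0.0136). Its call was lost without panobinostat replicate 1, without DMSO replicate 1 and without DMSO replicate 3 (adjusted p 1.81e-16 to 0.0631). ATP10D, a flippase of glucosylceramide, had 77.2, 72.6 and 60.8 CPM in panobinostat, against 58.6, 56.6 and 60.05 CPM in DMSO, a log2 fold change of 0.27 ± 0.10 (edgeR adjusted p = 0.0473). That call was lost in 9 of 15 alternatives, among them each fit without a single library other than panobinostat replicate 4 (adjusted p 1.66e-08 to 0.186).

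ATP8B3, known from the sperm acrosome, had 8.48, 8.46 and 11.3 CPM in panobinostat, against 18.8, 14.1 and 13.7 CPM in DMSO, a log2 fold change of −0.75 ± 0.19 (edgeR adjusted p = 0.00967). ATP10A, a flippase of phosphatidylcholine at the plasma membrane, had 9.07, 8.09 and 12.8 CPM in panobinostat, against 17.5, 13.5 and 18.2 CPM in DMSO, a log2 fold change of −0.72 ± 0.20 (edgeR adjusted p = 0.0141). All panobinostat libraries of both genes lay below all DMSO libraries. The call of ATP10A was lost without panobinostat replicate 1, DMSO replicate 1 or DMSO replicate 3 (adjusted p 4.11e-09 to 0.0612). ATP11A, ATP11B, ATP8A2 and ATP9B had log2 fold changes of −0.15 ± 0.08, 0.08 ± 0.06, 0.03 ± 0.14 and 0.009 ± 0.15 and were not called. ATP11A was called lower at −0.16 and ATP11B higher at 0.10 without panobinostat replicate 4 (edgeR adjusted p = 0.0324 and 0.0497). TMEM30A, the beta subunit that most flippases need to leave the endoplasmic reticulum, is on the partner list and was picked for naming after its values were seen. It had 389, 415 and 347 CPM in panobinostat, against 286, 266 and 271 CPM in DMSO, a log2 fold change of 0.48 ± 0.08 (edgeR adjusted p = 0.00218).

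Of the P5 pumps, 3 of 5 were tested, of which 1 rose, 1 fell and 1 was not called. The shares over all tested genes were 30.2% higher and 28.6% lower. ATP13A2, a lysosomal polyamine exporter linked to a form of parkinsonism, had 105, 103 and 76.8 CPM in panobinostat, against 62.3, 60.2 and 67.2 CPM in DMSO, a log2 fold change of 0.59 ± 0.13 (edgeR adjusted p = 0.00544). ATP13A1, which pulls misplaced proteins out of the endoplasmic reticulum membrane, had 75.6, 69.1 and 76.8 CPM in panobinostat, against 94.7, 97.2 and 97.9 CPM in DMSO, a log2 fold change of −0.39 ± 0.07 (edgeR adjusted p = 0.00356). ATP13A2 was higher in every panobinostat library, and ATP13A1 lower. ATP13A3, also linked to polyamine transport, had 0.11 ± 0.05 and was not called. It was called higher without panobinostat replicate 4 at 0.11 (edgeR adjusted p = 0.0140).

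**Figure D5:**
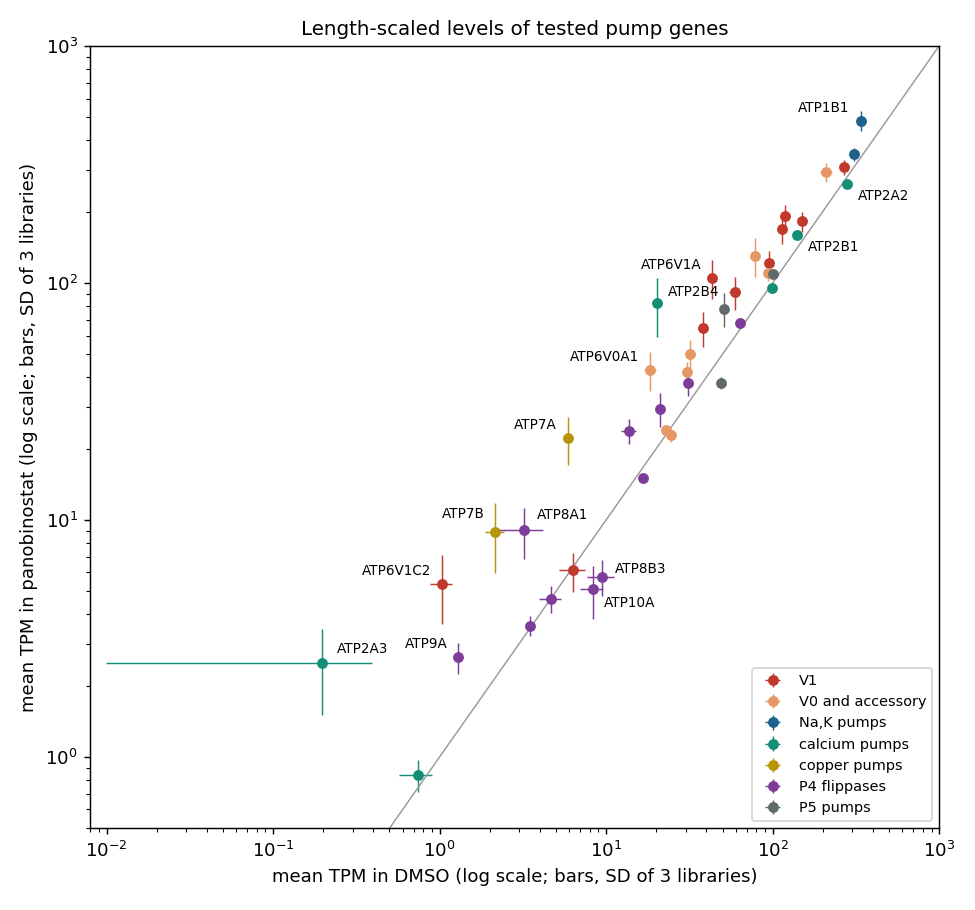
Mean level of 42 tested pump genes in TPM, in panobinostat on the vertical axis and in DMSO on the horizontal axis, both log scales, with bars of 1 SD over 3 libraries (shortened at the low end for ATP2A3) and the line of equal levels. ATP1B1 and ATP2A2 lie near the line at high levels, and ATP2B4, ATP7A and ATP7B lie well above it.

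Other listed genes encode proteins that assemble, regulate or accompany the pumps. Of 35 partner genes listed, 31 had a row and 27 were tested, of which 14 rose and 3 fell, where 30.2% of all tested genes were called higher and 28.6% lower. Of the 17 tested on the V-ATPase side, 7 rose, 2 fell and 8 were not called. ROGDI, of the complex that helps V1 and V0 join, had 17.9, 20.2 and 13.4 CPM in panobinostat, against 5.34, 4.27 and 4.81 CPM in DMSO, a log2 fold change of 1.82 ± 0.19 (edgeR adjusted p = 0.000687). WDR7, of the same complex, rose by 0.54 ± 0.13 (log2). SLC38A9, the lysosomal arginine sensor, rose by 0.43 ± 0.10 (log2). Of the Ragulator complex, which links the V-ATPase to mTORC1, LAMTOR2 rose by 0.60 ± 0.15 while LAMTOR1, its membrane anchor, fell, with a log2 fold change of −0.70 ± 0.12 (edgeR adjusted p = 0.0101 for LAMTOR2 and 0.00252 for LAMTOR1). LAMTOR1 had 40.6, 39.9 and 52.4 CPM in panobinostat, against 73.6, 67.7 and 73.5 CPM in DMSO. VMA21, a chaperone of V0 assembly, also fell, with a log2 fold change of −0.40 ± 0.09.

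Of 10 tested partners of P-type pumps, 7 rose, 1 fell and 2 were not called, where 30.2% of all tested genes were called higher and 28.6% lower. NPTN, the neuroplastin that accompanies PMCA pumps, rose by 0.61 ± 0.09 (log2, edgeR adjusted p = 0.00186). FXYD5, a regulator of the Na,K-ATPase also called dysadherin, fell, with 144, 143 and 172 CPM in panobinostat, against 203, 204 and 208 CPM in DMSO and a log2 fold change of −0.42 ± 0.08 (edgeR adjusted p = 0.00447).

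Of 31 tested genes on that list of lysosomal proteins and their transcription factors, 17 rose, 3 fell and 11 were not called, with a median log2 fold change of 0.23, beside 0.51 for the V-ATPase genes and 0.00 over all genes. Of all tested genes, 30.2% were called higher and 28.6% lower. Without panobinostat replicate 1, or without DMSO replicate 3, 11 lysosomal genes were called higher. Those fits called 3106 of 13443 and 3335 of 13743 tested genes higher. TFEB, a transcription factor of lysosomal genes, had 20.5, 15.8 and 11.6 CPM in panobinostat, against 1.95, 2.28 and 2.17 CPM in DMSO, a log2 fold change of 2.94 ± 0.26 (edgeR adjusted p = 0.000573). Its relative MITF rose by 0.87 ± 0.12 (log2), and TFE3 fell, with a log2 fold change of −0.50 ± 0.10. On the TPM scale TFE3 stood far above both, with 91.4 ± 12.7 TPM in panobinostat and 128 ± 7.25 TPM in DMSO. TFEB averaged 12.2 ± 3.40 TPM in panobinostat and 1.61 ± 0.129 TPM in DMSO. MITF averaged 22.6 ± 2.57 TPM in panobinostat and 12.4 ± 0.770 TPM in DMSO (SD, n = 3 each). MCOLN1, the calcium channel of the lysosome, rose by 0.85 ± 0.13, and NPC1, which exports cholesterol from it, by 0.82 ± 0.12 (log2). The hydrolase genes SGSH and CTSD fell, with log2 fold changes of −0.52 ± 0.09 and −0.30 ± 0.07. Whether any of these factors acts on the pump genes was not tested.

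Counting by strand and the assignment of reads in shared bases are not stated. Reads where antisense genes overlap members could therefore be added to the members' counts or be missing from them. In GENCODE 29, genes on the opposite strand overlap 26.2% of the exonic bases of ATP2C2 and 16.7% of those of ATP6V0D2. The overlap is 13.0% for ATP6V0E2, 7.3% for ATP2A1 and 0.86% for ATP2B1. ATP6V0E2-AS1 fell, with a fold change of 0.429, a call that did not hold when panobinostat replicate 1 or DMSO replicate 1 was left out (adjusted p between 2.83e-17 and 0.0577 over the alternatives), and ATP2B1-AS1 rose with a fold change of 2.86. ATP2A1-AS1, which passed the filter only with the panobinostat libraries, had a fold change of 1.74 and a call lost in 8 of 14 alternatives (edgeR adjusted p = 0.0450, and 0.0227 to 0.289 over the alternatives). Any effect of antisense reads on the members was not tested. Of the 2 members that encode no pump, ATP6V1FNB had a log2 fold change of 0.67 ± 0.29 and was not called, and ATP11AUN held 1 count over all libraries together.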

How the data were processed

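The authors deposited a table of raw counts per gene for 6 libraries, not normalised, with featureCounts in its name. Per the labels' protocols, RNA came from a column kit and libraries from a stranded mRNA kit. The submitters' processing notes name GRCh38.p14 as build and FastQC as a tool. Aligner, annotation and whether reads were counted by strand: not given in the sources used here. Beside the counts, the deposited table holds the authors' own comparison, which was not used here. Counts and symbols stand under separate identifier columns and were joined by identifier.

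Counts were tested with edgeR 4.0.16 (R 4.3.3; TMM scaling, robust quasi-likelihood fit, treatment as the only term) over 13341 genes that passed filterByExpr (10 counts, here 1.46 CPM in 3 libraries), with Benjamini-Hochberg adjustment over all of them. A gene was called at an adjusted p under 0.05. The SE given with a log2 fold change is approximate, since the test reports none. It is the absolute log2 fold change divided by the square root of the test's F statistic. CPM use TMM-scaled totals. TPM use the merged length of all exons of a gene in GENCODE 29, which also gave the overlaps between genes. Chromosome positions are those of RefSeq on GRCh38.p14, and so are the promoter windows. The groups, of 3 libraries each, come from the labels. Totals ran from 5389638 to 15106148 counts, and their size limits the genes near the filter. An exact test of 3 against 3 could not go below 0.1 and was not used. The main fit was also run on simulated counts with few changed genes and no outlying library. It called 94 to 100% of genes given a log2 change of 1 or 2 in either direction, and 0.13% of unchanged genes. Those settings differ from these data, with many genes called and panobinostat replicate 4 between the groups. The run therefore does not vouch for the calls made here. The alternatives replaced the scaling (size factors of DESeq2, upper quartile, library size alone), the filter (none, or a mean CPM of at least 1) or the test (DESeq2 1.42.0, limma-voom of limma 3.58.1 with and without quality weights), added the replicate number as a block, or left out each library in turn.

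The members and lists were chosen with earlier results of these data known. Values in every library are given for up to 5 called members per direction with the largest change in each family, and for a set that includes ATP6V1A, ATP6V0C, ATP1B1, ATP2A2, ATP2B1, ATP7A and ATP13A2 in any case, and from the partner and lysosomal lists up to 4 genes per direction are named. A few members are neither named nor drawn and remain in the counts and medians.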

Additional observations from a re-analysis of the deposited data

How the results depend on the processing

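Of 674 values for 45 pump genes over the alternatives, 597 kept direction and side of the threshold, 41 lost a call, 25 gained one and 11 changed sign. The counts of pump genes, V-ATPase genes, P-type pumps and partner genes called higher (27, 13, 14 and 14) stayed within 1.5 times under every alternative run. For counts called lower, the alternatives gave other values in some cases. With panobinostat replicate 4 left out, 8 pump genes were called lower against 4, 1 V-ATPase gene (ATP6V0A2) against 0, 7 P-type pumps against 4, 5 partners against 3 and 6 lysosomal genes against 3. Over the fits that left out 1 library each, the counts called lower ran from 3 to 8 for pump genes, 0 to 1 for the V-ATPase, 3 to 7 for P-type pumps, 3 to 5 for partners and 3 to 6 for lysosomal genes. Those called higher ran from 21 to 32 for pump genes and from 11 to 20 for lysosomal genes, where 11 was reached without panobinostat replicate 1 or DMSO replicate 3. Over all tested genes, the fits without 1 library called from 3106 to 5171 higher and from 2624 to 5078 lower. With no filter, 1 V-ATPase gene was called lower, ATP6V0A4 (log2 fold change −1.33, edgeR adjusted p = 0.0418, 14 counts summed in panobinostat and 33 in DMSO). With limma-voom and quality weights, 5 partners and 5 lysosomal genes were called lower. The replicate number as a block gave 7 pump genes, 1 V-ATPase gene (ATP6V0A2), 5 partners and 7 lysosomal genes called lower. In that fit, DMSO replicate 3 and panobinostat replicate 4 have no library of the same number. Its treatment estimates therefore rest on replicates 1 and 2 of each group. Of 13341 genes tested, the block fit called 4950 lower and the fit with quality weights 4928, against 3821 in the main fit. Only numbers 1 and 2 occur in both groups, and the deviations of same-numbered libraries had correlations of 0.0514 and 0.00807. Deviations were taken from each group's mean, which in panobinostat includes the outlying replicate 4. These correlations therefore cannot tell whether the numbers pair the libraries. Sign changes were limited to genes not called, each near 0. With no filter, the log2 fold changes were −0.027 for ATP8A2, −0.047 for ATP9B and −0.018 for ATP6V0E2, and with DESeq2 that of ATP9B was −0.019. Over the fits without 1 library each, they ran from −0.019 to 0.095 for ATP8A2, −0.12 to 0.089 for ATP9B, −0.00088 to 0.053 for ATP6V0E2 and −0.22 to 0.041 for ATP6V1E2. The cause of these differences was not tested. Genes at a few counts per library, such as ATP2A3 and ATP6V1C2, have the least certain values.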
